A study of Homo sapiens with 22 samples.

Results

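The iron uptake and storage genes TFRC, TFR2, STEAP3, SLC11A2, SLC25A37, FTH1, FTL, NCOA4, IREB2 and ACO1 were followed across genotype and day in HUDEP-2 cells. They were taken by symbol from the raw count tables of both experiments. All 10 of the 10 symbols were among the 59087 names in each table, and all 10 passed the filter on low counts in both experiments, so none was lost to it. HUDEP-2 cells are human erythroid progenitors that were immortalized and can be matured in culture. RNA-Seq was done on 2 WT subclones and 3 with H2A.X KO in the H2A.X experiment and on 3 WT subclones and 3 with BAZ1B KO in the BAZ1B experiment, with 1 library per replicate number and day. The labels give only this replicate number, which is called the subclone number below. Whether it marks the same subclone at D0 and D6 is not stated. H2A.X is a histone variant, and BAZ1B (WSTF) is a kinase that acts on it. Each KO was made with Cas9 and a pair of guides, with a homozygous deletion that spanned the H2A.X coding region or the first exon of BAZ1B, and each KO subclone was grown from a single cell, so a subclone can differ from another for reasons other than the deletion. D0 cells were in expansion medium with SCF, erythropoietin, dexamethasone and doxycycline. D6 cells were in maturation medium, which had no dexamethasone and contained plasma, holo-transferrin, insulin, heparin, SCF, erythropoietin and doxycycline. Holo-transferrin is transferrin loaded with iron. Because the medium changed with the day, the effects of the day and of the medium cannot be told apart. The p-values measure the spread between replicate libraries within a genotype and day, and unless a block is named the libraries of both days were treated as independent.

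Erythroid cells take up most of their iron as transferrin. The complex of transferrin and the receptor TFRC enters endosomes, where STEAP3 reduces the released iron and the transporter SLC11A2 (DMT1) carries it to the cytosol, and SLC25A37 (mitoferrin-1) carries iron into mitochondria for heme. TFR2 is a second transferrin receptor, which also associates with the erythropoietin receptor. Iron that is not used is kept in ferritin, a shell of heavy (FTH1) and light (FTL) chains, and NCOA4 brings ferritin to lysosomes to free its iron. The iron regulatory proteins IRP1 (encoded by ACO1, which is a cytosolic aconitase when it holds an iron-sulfur cluster) and IRP2 (encoded by IREB2) bind a stem-loop, the iron-responsive element (IRE), when iron is scarce. Binding in the 5′ untranslated region of the ferritin mRNAs blocks their translation, and binding in the 3′ untranslated region of TFRC mRNA protects it from decay. A count of mRNA therefore does not show the translational control of ferritin. It can be moved by the control of TFRC mRNA, but does not separate decay from transcription.

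The elements themselves are shown because the members differ in where they carry them. A search for a C, 5 bases and the loop CAGTGN, with the last loop base other than G and with the 5 bases before the loop pairing with the 5 after it (G–U pairs allowed), was run on the sense strand of the canonical coding transcripts of GENCODE in GRCh38 (hg38). It found 1 element in the 5′ untranslated region of FTH1 at chr11:61967574-61967602 on the minus strand and 1 in that of FTL at chr19:48965335-48965363 on the plus strand. In the 3′ untranslated region of TFRC it found 4, on the minus strand at chr3:196050463-196050491, chr3:196050510-196050538, chr3:196050575-196050603 and chr3:196050979-196051007. For the members the search also covered their other annotated coding transcripts. The other 7 members held no match to these letters in any transcript searched. SLC11A2 is known to have an isoform with an element in its 3′ untranslated region, and the absence of a match says only that these letters are not in its coding transcripts as annotated. The same search matched 11 of 19701 canonical coding transcripts in the 5′ untranslated region (0.0558%) and 97 in the 3′ untranslated region (0.492%). A match is a description of the sequence and not a measurement of binding. In the sequences, read 5′ to 3′ along the mRNA with T for U, capitals mark the 6 bases of the loop.
FTH1: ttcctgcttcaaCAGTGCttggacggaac
FTL: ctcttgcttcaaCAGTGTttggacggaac
TFRC a: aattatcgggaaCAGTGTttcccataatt
TFRC b: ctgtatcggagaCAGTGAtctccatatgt
TFRC c: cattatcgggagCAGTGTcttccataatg
TFRC d: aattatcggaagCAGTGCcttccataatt

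Total counts ran from 11910141 to 21013004 in the 10 libraries of the H2A.X experiment and from 33199408 to 41273244 in the 12 of the BAZ1B experiment, and the biological coefficients of variation were 0.239 and 0.0865. The H2A.X gene (H2AFX in the tables) was lower in H2A.X KO by a log2 fold change of -1.499 at D0 and -1.52 at D6, and BAZ1B was lower in BAZ1B KO by -0.40 and -0.38, where only the first exon is lost. Of the 14 erythroid marker genes none was without reads in any library of the H2A.X experiment, and their summed level was 19590 and 29372 CPM in H2A.X WT and 8462 to 10910 CPM in H2A.X KO at D0. In the BAZ1B experiment it was 3606 to 5205 CPM at D0, with HBG1 at 0 in the 3 BAZ1B KO libraries of that day and in 1 at D6. The H2A.X WT libraries labelled D0 therefore held more erythroid marker RNA than any other library of that day. At D6 it was 32134 to 60564 CPM in the H2A.X experiment and 23318 to 35231 CPM in the BAZ1B experiment. Marker genes of mast cells and eosinophils, 8 in all, summed to 104 and 140 CPM in H2A.X WT and 209 to 419 CPM in H2A.X KO at D0, and to 145 and 232 CPM in WT and 3.08 to 13.5 CPM in KO at D6. In the BAZ1B experiment the sum was 453 to 620 CPM at D0 and 12.2 to 40.8 CPM at D6. Monocyte and macrophage markers summed to at most 6.40 CPM, megakaryocyte markers to at most 75.7 CPM and lymphocyte markers to at most 0.0527 CPM in any library. In every library 6 of the 7 megakaryocyte markers were below 1 CPM, so their sum does not stand for the set. Of the 8 mast cell and eosinophil markers, 6 were below 1 CPM in each H2A.X WT library, 3 in H2A.X KO at D0 and 6 or 7 in H2A.X KO at D6. In the BAZ1B experiment 2 or 3 were at D0 and 6 at D6. The KO against WT fold changes of the H2A.X experiment went with the exonic length of the gene (Spearman's rho across 12017 genes, 0.430 at D0 and 0.467 at D6), whereas in the BAZ1B experiment rho was -0.0181 and 0.0466. In 5 of the 6 H2A.X KO libraries, all but D6 replicate 3, the column name carried the word Redo, and in no WT library did it. What was redone is not stated, so whatever the word stands for and the genotype cannot be told apart. In these bulk samples, fewer cells of a type and less RNA per cell cannot be told apart.

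To compare members with each other, levels were expressed as RPKM, reads per kilobase of the canonical transcript scaled to the library size after TMM normalization. The ferritin chains were the most abundant members, followed by TFRC. In BAZ1B WT at D0, FTL stood at 3185 ± 112 RPKM (SD, n = 3), FTH1 at 1686 ± 21.2 and TFRC at 681 ± 3.61. A middle group held TFR2 at 99.1 ± 1.21, SLC25A37 at 90.8 ± 1.94 and NCOA4 at 63.4 ± 1.78 RPKM. The lowest were IREB2 at 19.9 ± 0.426, STEAP3 at 18.1 ± 0.272, ACO1 at 15.1 ± 0.516 and SLC11A2 at 14.1 ± 0.491 RPKM. The ranges of neighbours in this order did not overlap over the 3 WT libraries except for ACO1 and SLC11A2, whose ranges were 14.5 to 15.4 and 13.7 to 14.7 RPKM. In H2A.X WT at D0 the first 3 places were the same, with 3390.2 and 5046 RPKM for FTL, 2129.7 and 3788 for FTH1 and 1043 and 896 for TFRC, and here the ranges of FTL and FTH1 overlapped. SLC25A37 was at 404 and 248 RPKM in those libraries, above all 6 D0 libraries of the BAZ1B experiment. At D6 the place of SLC25A37 in BAZ1B WT was above TFR2, at 677 ± 84.7 against 142 ± 7.76 RPKM. The 10 members together took 0.969% to 1.06% of all counts in the D0 libraries of the BAZ1B experiment and 1.94% to 2.10% in its D6 libraries. Levels set across the experiments come from tables that were normalized separately.

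**Figure D1:**
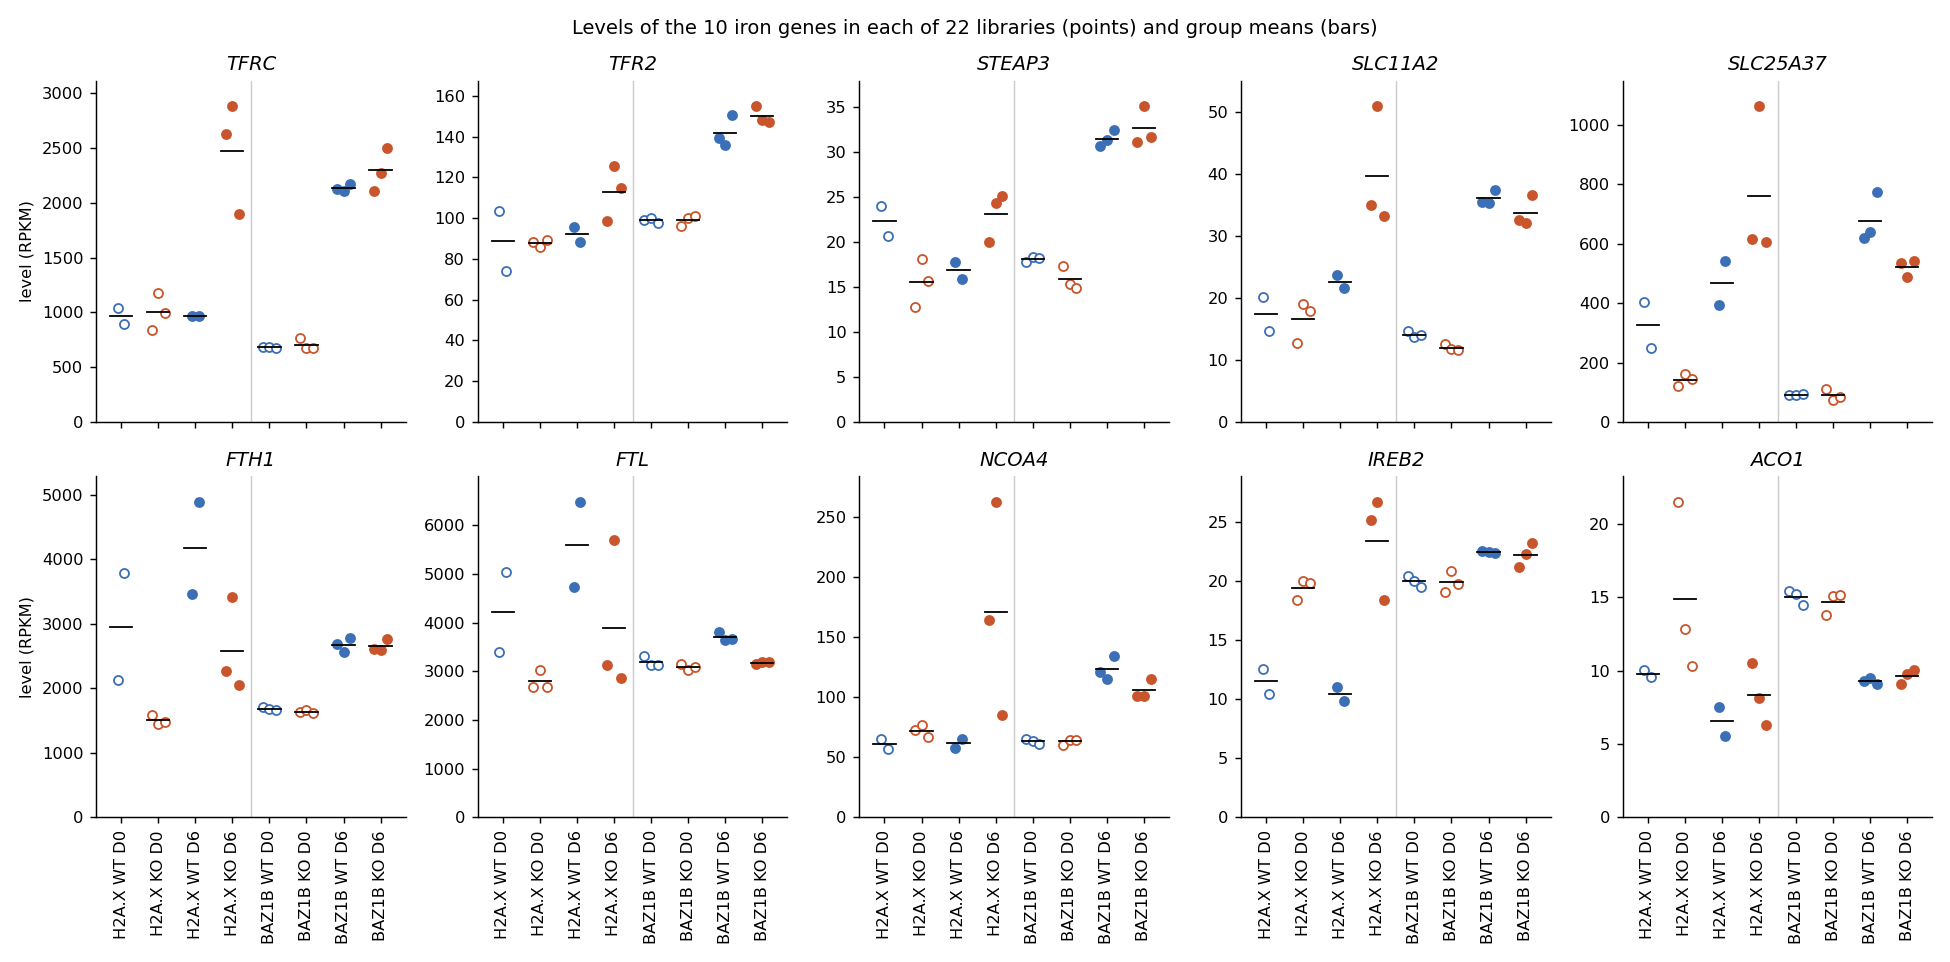
The plot of levels shows RPKM on linear axes from 0 for each of the 10 genes, with 1 point per library, open at D0 and filled at D6, blue for WT and orange for KO, and a bar at the mean of each group. In the BAZ1B experiment TFRC stood between 671 and 765 RPKM in the D0 libraries and between 2108 and 2503 RPKM in the D6 libraries, whereas in the H2A.X experiment the WT libraries of both days stayed between 896 and 1043 RPKM.

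The change from D0 to D6 in BAZ1B WT asks how the members behave during maturation without a knockout. Of the members 9 rose and 1, ACO1, fell. All 10 were called at an adjusted p below 0.05 by edgeR's quasi-likelihood test, in a comparison in which 68.9% of all 13879 genes were called, 33.5% higher and 35.4% lower, so a call alone says little there. The median log2 fold change of the members was 0.73, against -0.015 over all genes tested, and the median absolute change was 0.75 against 0.47. The mast cell and erythroid marker sums moved with the day in the same libraries, and their part in these changes was not tested.

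Of the uptake genes, TFRC, the transferrin receptor, was at 680.5, 685 and 678 RPKM in the WT libraries at D0 and at 2124, 2111 and 2173 at D6. The days did not overlap, and the rise was 3.14-fold (log2 fold change 1.65, SE 0.0616, adjusted p = 2.24e-10). SLC11A2, the endosomal iron exporter, rose 2.56-fold from 14.7, 13.7 and 13.99 to 35.5, 35.4 and 37.4 RPKM (log2 fold change 1.35, SE 0.0542, adjusted p = 3.60e-10). STEAP3, the endosomal ferrireductase, rose less, by 1.74-fold (log2 fold change 0.80, SE 0.0583, adjusted p = 6.37e-08), with WT libraries spanning 17.8 to 18.3 RPKM at D0 and 30.7 to 32.4 RPKM at D6. TFR2 rose 1.43-fold (log2 fold change 0.52, SE 0.0425, adjusted p = 1.95e-07), so both transferrin receptors were higher at D6 and TFRC by more. The change of SLC25A37, the mitochondrial importer, was the largest among the members. It stood at 89.3, 90.1 and 92.96 RPKM at D0 and at 618, 639 and 774 at D6, a 7.46-fold rise (log2 fold change 2.90, SE 0.128, adjusted p = 7.63e-10) that was at the 98.5 percentile of the log2 fold changes of all genes tested.

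Of the storage genes, FTH1 rose 1.59-fold, from 1711, 1676 and 1672 to 2685, 2564 and 2779 RPKM (log2 fold change 0.67, SE 0.0378, adjusted p = 5.80e-09), and FTL only 1.16-fold, from 3315, 3118 and 3122 to 3803, 3648 and 3664 RPKM (log2 fold change 0.22, SE 0.0342, adjusted p = 8.23e-05). NCOA4, the receptor that sends ferritin to lysosomes, rose 1.95-fold, from 64.95, 63.7 and 61.4 to 121, 115 and 134 RPKM (log2 fold change 0.96, SE 0.0635, adjusted p = 2.45e-08). The regulators moved in opposite directions. IREB2 rose 1.12-fold, from 20.4, 19.99 and 19.5 to 22.5, 22.4 and 22.3 RPKM (log2 fold change 0.17, SE 0.0417, adjusted p = 0.00303), and ACO1 fell to 0.618 of its D0 level, from 15.4, 15.3 and 14.5 to 9.32, 9.50 and 9.09 RPKM (log2 fold change -0.69, SE 0.0490, adjusted p = 4.64e-08). No member overlapped between the days in these WT libraries, and the share of all genes without overlap was not counted. All 10 calls and directions held with DESeq2, with both other normalizations, without globin genes, without the filter and with each library left out in turn.

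**Figure D2:**
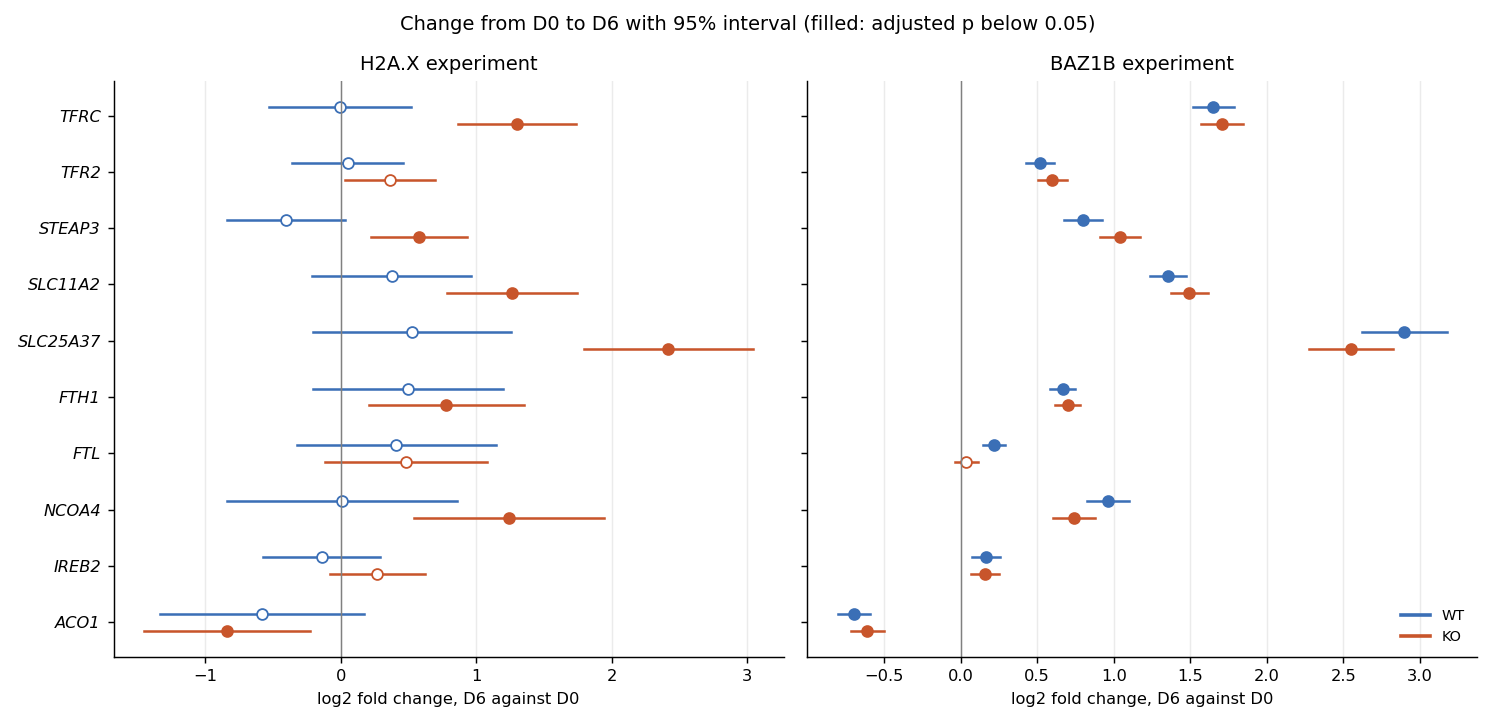
The plot of changes by day gives the log2 fold change from D0 to D6 for each gene with its 95% confidence interval, blue for WT and orange for KO, filled where the adjusted p was below 0.05; the panels have different horizontal scales. In the BAZ1B experiment SLC25A37 lay at 2.90 in WT and 2.55 in KO and ACO1 at -0.69 and -0.61, whereas in the H2A.X experiment no WT point is filled and 7 KO points are.

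In BAZ1B KO cells between the same days 9 members were called, where 67.7% of all genes were, 33.2% higher and 34.5% lower: 8 rose and ACO1 fell. TFRC rose 3.27-fold (log2 fold change 1.71, adjusted p = 1.57e-10), SLC11A2 2.82-fold (log2 fold change 1.49, adjusted p = 1.78e-10) and SLC25A37 5.84-fold (log2 fold change 2.55, adjusted p = 2.05e-09). NCOA4 rose 1.67-fold, STEAP3 2.06-fold, FTH1 1.62-fold, TFR2 1.52-fold and IREB2 1.12-fold, and the log2 fold change of ACO1 was -0.61. FTL was the member not called. In KO it stood at 3148, 3035 and 3094 RPKM at D0 and at 3143, 3190.2 and 3189 at D6, the days overlapped, and the log2 fold change was 0.038 (95% interval -0.036 to 0.11, adjusted p = 0.344). That a change passes the threshold in WT and not in KO does not show that the genotypes differ, so the D6 effect of the KO minus its D0 effect was tested, which uses the same libraries again. No member was called in that test, where 2.47% of all genes were. At an unadjusted p below 0.05 there were 3 members, where 16.5% of all genes were, namely FTL (log2 fold change -0.18, SE 0.0483, adjusted p = 0.0753), NCOA4 (log2 fold change -0.22, adjusted p = 0.236) and STEAP3 (log2 fold change 0.24, adjusted p = 0.157). The other 7 had log2 differences between -0.35 for SLC25A37 (95% interval -0.72 to 0.015) and 0.14 for SLC11A2. DESeq2 called 1, FTL (log2 fold change -0.18, adjusted p = 0.0103), and 5.04% of all genes. Leaving out BAZ1B KO D0 replicate 1 brought STEAP3 to an adjusted p of 0.0187, where 5.41% of all genes were called.

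The difference between BAZ1B KO and WT asks whether the kinase is needed for these levels. At D0, 1 member was called, lower, where 3.88% of all genes were called and 2.64% were lower. SLC11A2 was at 12.6, 11.7 and 11.7 RPKM in KO and 14.7, 13.7 and 13.99 in WT, without overlap (log2 fold change -0.23, SE 0.0549, adjusted p = 0.0321). This call was lost without BAZ1B WT D0 replicate 1, 2 or 3 (adjusted p = 0.143, 0.0702 and 0.0933) and without BAZ1B KO D0 replicate 2 or 3 (0.0866 and 0.150), although the log2 fold change stayed between -0.27 and -0.21. STEAP3 was next, at 17.3, 15.3 and 14.8 RPKM in KO and 17.8, 18.3 and 18.2 in WT, with no overlap (log2 fold change -0.19, SE 0.0589, adjusted p = 0.106), and without BAZ1B KO D0 replicate 1 it was called (log2 fold change -0.26, adjusted p = 0.00657). The other 8 members had log2 fold changes between -0.043 for FTL and 0.045 for TFRC, and the 95% interval for TFRC was -0.086 to 0.17.

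At D6, 2 members were called lower in BAZ1B KO, where 12.8% of all genes were called and 5.97% were lower. FTL was at 3143, 3190.2 and 3189 RPKM in KO and 3803, 3648 and 3664 in WT. All KO libraries were below all WT libraries (log2 fold change -0.22, SE 0.0342, adjusted p = 0.0010), and the call held without any 1 library. NCOA4 was at 102, 101 and 116 RPKM in KO and 121, 115 and 134 in WT. The groups overlapped (log2 fold change -0.22, SE 0.0628, adjusted p = 0.0366), and the call was lost without BAZ1B WT D6 replicate 1 or 3 (adjusted p = 0.0691 and 0.137) and without BAZ1B KO D6 replicate 1 or 2 (0.0953 and 0.102). Libraries of D6 alone gave NCOA4 an adjusted p of 0.0750. SLC25A37 did not pass the threshold, at 534, 489 and 543 RPKM in KO and 618, 639 and 774 in WT, although the groups did not overlap (log2 fold change -0.38, SE 0.119, adjusted p = 0.0583), and it did with D6 libraries alone (adjusted p = 0.0191). After a correction for gene length and GC content FTL had a log2 fold change of -0.10 and an adjusted p of 0.0634. TFRC (0.10, 95% interval -0.027 to 0.23) and FTH1 (-0.0086, -0.090 to 0.073) had intervals of the log2 fold change that held 0, as had SLC11A2 (-0.095), TFR2 (0.081), STEAP3 (0.051), ACO1 (0.050) and IREB2 (-0.014). The median of the members was -0.011, against -0.0037 over all genes. Summed erythroid markers were 23318 to 27407 CPM in KO and 29588 to 35231 CPM in WT at D6, and their part in these differences was not tested.

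**Figure D3:**
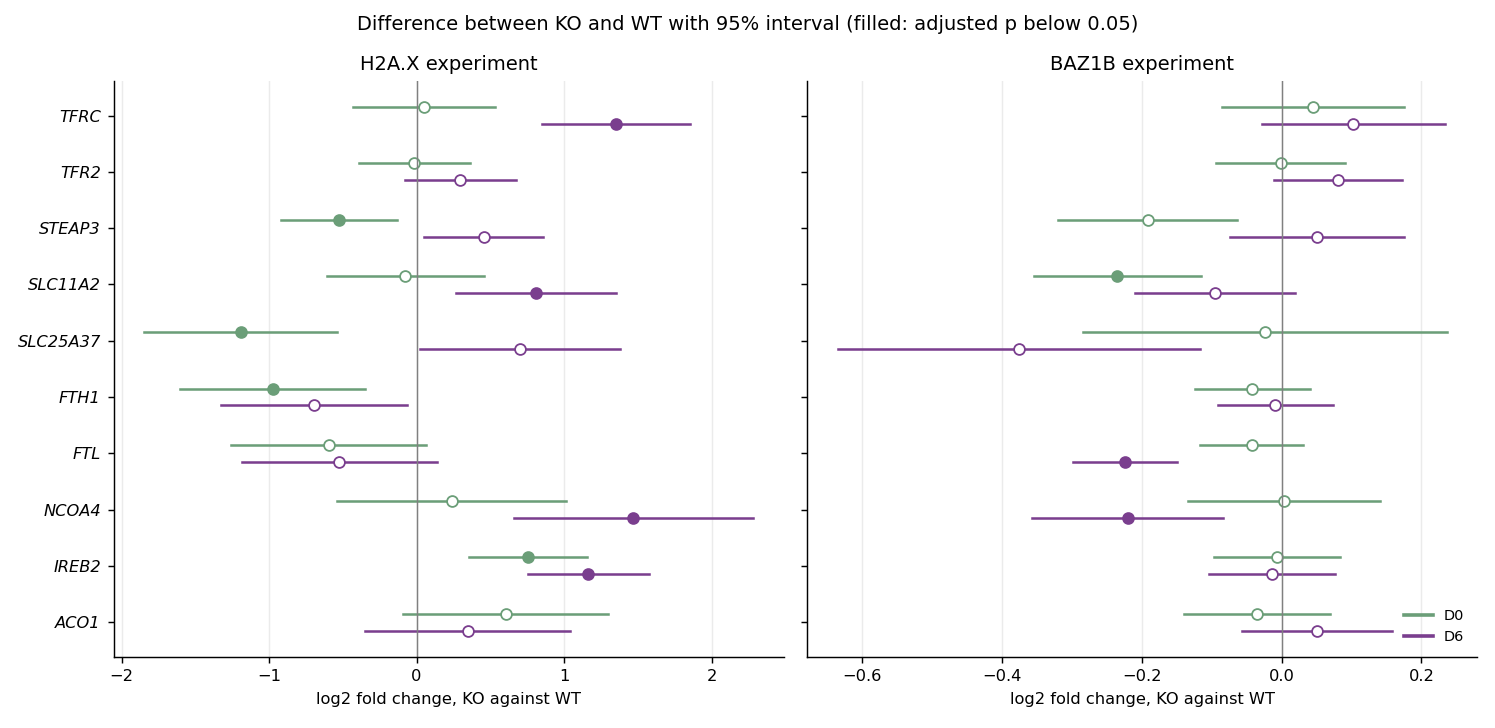
The plot of genotype differences gives the log2 fold change of KO against WT with its 95% confidence interval at D0 (green) and D6 (purple), filled where the adjusted p was below 0.05; the horizontal scale of the BAZ1B panel is narrower. In the H2A.X experiment TFRC lies at 0.049 at D0 and 1.35 at D6 and SLC25A37 at -1.19 and 0.70, while no BAZ1B point lies further from 0 than -0.38.

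In the H2A.X experiment 7 members were called between the days in KO and none in WT. No member was called in H2A.X WT between D0 and D6 by edgeR, where 2.0% of all 13236 genes were. None had an unadjusted p below 0.05 either, where 21.1% of all genes did, and DESeq2 called none. TFRC was at 1043 and 896 RPKM at D0 and 964 and 968 at D6, and the 95% interval of its log2 fold change was -0.53 to 0.52. SLC25A37 went from 404 and 248 to 395 and 542 RPKM, with overlap (log2 fold change 0.52, SE 0.328, adjusted p = 0.397). The other 8 members had log2 fold changes between -0.58 for ACO1 and 0.50 for FTH1. With 2 WT subclones a day and the spread of this experiment, the interval of SLC25A37 was -0.21 to 1.25. A rise of the size seen for it in BAZ1B WT would lie outside, and so would that of TFRC for its interval. The experiments did not start alike: the erythroid marker sum at D0 was 19590 and 29372 CPM in H2A.X WT and 3606 to 4332 CPM in BAZ1B WT. At D6 it was 33910 and 60564 CPM in H2A.X WT. The mast cell and eosinophil sum in H2A.X WT was 104 and 140 CPM at D0 and 232 and 145 CPM at D6. Their part in these changes was not tested.

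In H2A.X KO, 7 members were called between the days, where 30.9% of all genes were, 14.8% higher and 16.1% lower: 6 rose and ACO1 fell. The median log2 fold change was 0.68, against 0.019 over all genes. TFRC rose 2.46-fold, from 838, 1172 and 998 to 2625, 2879 and 1899 RPKM (log2 fold change 1.30, SE 0.197, adjusted p = 0.00116). SLC11A2 rose 2.40-fold, from 12.8, 19.03 and 17.9 to 35.02, 50.97 and 33.2 RPKM (log2 fold change 1.26, SE 0.216, adjusted p = 0.00212). SLC25A37 rose 5.34-fold, from 119.8, 162 and 146 to 616, 1062 and 605 RPKM (log2 fold change 2.42, SE 0.282, adjusted p = 0.000307). For these 3 genes no KO library of one day reached those of the other, and each call held without any 1 library. The days did not overlap either for NCOA4, STEAP3, FTH1 and TFR2, the last of which was not called. How many of all genes were without overlap was not counted. NCOA4, with 73.04, 76.9 and 67.05 RPKM at D0 and 164, 263 and 85.2 at D6, rose 2.36-fold (log2 fold change 1.24, SE 0.315, adjusted p = 0.0142), and the call was lost without H2A.X KO D0 replicate 3 (adjusted p = 0.0547). STEAP3 (log2 fold change 0.58, adjusted p = 0.0213), FTH1 (log2 fold change 0.78, adjusted p = 0.0432) and ACO1 (log2 fold change -0.84, adjusted p = 0.0421) were nearer to the threshold. ACO1 overlapped between the days, and it was called only without H2A.X KO D0 replicate 3 or H2A.X KO D6 replicate 1, with adjusted p-values from 0.0249 to 0.176. FTH1 was called only without H2A.X KO D6 replicate 3, with adjusted p-values from 0.0265 to 0.164, and STEAP3 was lost without H2A.X KO D0 replicate 1 or 3 or H2A.X KO D6 replicate 2 (0.0870, 0.0688 and 0.0595). FTL (0.48), TFR2 (0.36) and IREB2 (0.27) had log2 fold changes that did not pass. In the same KO libraries the erythroid marker sum went from at most 10910 to at least 32134 CPM and the mast cell and eosinophil sum from at least 209 to at most 13.5 CPM. Their part in these changes was not tested.

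Whether the change by day differed between H2A.X KO and WT was tested as the D6 effect of the KO minus its D0 effect, on the same libraries. By this test no member passed an adjusted p of 0.05, where 1.34% of all genes did. An unadjusted p below 0.05, which 15.2% of all genes had, was reached by 5 members: SLC25A37 (log2 fold change 1.89, SE 0.427, adjusted p = 0.0614), TFRC (log2 fold change 1.30, SE 0.308, adjusted p = 0.0697), STEAP3 (log2 fold change 0.98, adjusted p = 0.0955), SLC11A2 (log2 fold change 0.89, adjusted p = 0.247) and NCOA4 (log2 fold change 1.23, adjusted p = 0.268), all with a log2 change by day that was higher in KO than in WT. Libraries with the same subclone number at D0 and D6 deviated together in this experiment. With the subclone as a block, 3 members were called, where 4.17% of all genes were: TFRC (log2 fold change 1.29, adjusted p = 0.0154), STEAP3 (0.99, 0.0260) and SLC25A37 (1.83, 0.0226). DESeq2 without the block called the same 3, with adjusted p-values of 0.00169, 0.0128 and 0.00103, and 5.14% of all genes. Without H2A.X KO D6 replicate 3 the fit with no block called TFRC (0.0221), SLC25A37 (0.0276) and NCOA4 (0.0170), and 6.45% of all genes. The ferritin chains had log2 differences of 0.28 (95% interval -0.62 to 1.18) for FTH1 and 0.073 (-0.87 to 1.02) for FTL, and those of IREB2, TFR2 and ACO1 were 0.41, 0.31 and -0.26.

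At D0, 4 members differed between H2A.X KO and WT, where 35.1% of all genes did, 18.4% higher and 16.7% lower, so the share of members was near that of all genes. SLC25A37, FTH1 and STEAP3 were lower in KO and IREB2 was higher. SLC25A37 was at 119.8, 162 and 146 RPKM in KO and 404 and 248 in WT (log2 fold change -1.19, SE 0.295, adjusted p = 0.0141). FTH1 was at 1594, 1445 and 1476 RPKM in KO and 2129.7 and 3788 in WT (log2 fold change -0.98, SE 0.283, adjusted p = 0.0248), and STEAP3 at 12.8, 18.1 and 15.6 RPKM in KO and 23.96 and 20.6 in WT (log2 fold change -0.52, SE 0.177, adjusted p = 0.0427). IREB2 was at 18.4, 19.9 and 19.9 RPKM in KO and 12.6 and 10.4 in WT (log2 fold change 0.75, SE 0.180, adjusted p = 0.0129). None of these 4 genes overlapped between KO and WT, but neither did FTL, NCOA4 and ACO1, which were not called. The share of all genes without overlap was not counted. FTL was at 2678, 3022 and 2672 RPKM in KO and 3390.2 and 5046 in WT and did not pass the threshold (log2 fold change -0.60, SE 0.298, adjusted p = 0.140), nor did TFRC (0.049, 95% interval -0.43 to 0.53), TFR2 (-0.014), SLC11A2 (-0.076), NCOA4 (0.24) and ACO1 (0.60). In the same libraries the erythroid marker sum was 8462 to 10910 CPM in KO and 19590 and 29372 CPM in WT. The mast cell and eosinophil sum was 209 to 419 CPM in KO and 104 and 140 CPM in WT, and the megakaryocyte sum, with 6 of its 7 markers below 1 CPM in each library, 32.7 to 75.7 CPM in KO and 8.72 and 9.67 CPM in WT. Their part in these differences was not tested. The members' median log2 fold change was -0.045, against 0.013 over all genes.

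These D0 calls rest on few libraries. Without H2A.X WT D0 replicate 2, which leaves 1 WT library that is assumed to vary like the others, none of the 4 was called (adjusted p = 0.134 for STEAP3, 0.0766 for SLC25A37, 0.288 for FTH1 and 0.141 for IREB2), and over all genes the share called fell from 35.1% to 0.551%. Without H2A.X WT D0 replicate 1, SLC25A37 (0.0940) and STEAP3 (0.187) were lost, and without H2A.X KO D0 replicate 1, SLC25A37 (0.0507), FTH1 (0.0586) and STEAP3 (0.135) were. FTH1 was also lost without H2A.X KO D0 replicate 2 (0.0711) or 3 (0.0701) and STEAP3 without the latter (0.100). Over these fits the log2 fold change of SLC25A37 ran from -1.503 to -0.80 and that of FTH1 from -1.33 to -0.50. A correction of each library for exonic length and GC content left SLC25A37 called (log2 fold change -1.46, adjusted p = 0.00966) and ended the calls of FTH1 (-0.44, 0.202), STEAP3 (-0.40, 0.0736) and IREB2 (0.14, 0.405). With it TFRC, at 17376 bp the member with the longest exonic length, was lower in KO (-0.75, 0.0221). With the length of the canonical transcript in place of the exonic length, STEAP3 kept its call and TFRC had -0.41 and an adjusted p of 0.121.

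At D6, 4 members were higher in H2A.X KO, where 43.1% of all genes were called, 22.2% of all genes higher: TFRC, SLC11A2, NCOA4 and IREB2. TFRC was at 2625, 2879 and 1899 RPKM in KO and 964 and 968 in WT, 2.55-fold higher (log2 fold change 1.35, SE 0.227, adjusted p = 0.00390). IREB2 was at 25.1, 26.7 and 18.4 RPKM in KO and 10.99 and 9.84 in WT, 2.24-fold higher (log2 fold change 1.17, SE 0.184, adjusted p = 0.00358). NCOA4, at 164, 263 and 85.2 RPKM in KO and 58.2 and 65.2 in WT, was 2.77-fold higher and spread widest over the KO subclones (log2 fold change 1.47, SE 0.366, adjusted p = 0.0107). SLC11A2 was at 35.02, 50.97 and 33.2 RPKM in KO and 23.7 and 21.6 in WT (log2 fold change 0.81, SE 0.245, adjusted p = 0.0229). KO and WT did not overlap for any of the 4, nor for SLC25A37, STEAP3, TFR2 and FTH1, which were not called. The share of all genes without overlap was not counted. For each of the 4 called genes the KO library nearest to WT was replicate 3, the KO library without the word Redo in its column name. The ferritin chains were below WT without passing the threshold, FTH1 at 2269.5, 3423 and 2055 RPKM in KO and 3462 and 4896 in WT (log2 fold change -0.69, SE 0.284, adjusted p = 0.0704) and FTL at 3137, 5685 and 2871 RPKM in KO and 4722 and 6481 in WT, with overlap (log2 fold change -0.52, SE 0.298, adjusted p = 0.177). SLC25A37 (0.70), STEAP3 (0.46), TFR2 (0.30) and ACO1 (0.35) had log2 fold changes above 0 that did not pass. The median of the members was 0.58, against -0.0062 over all genes.

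Without H2A.X WT D6 replicate 2, which again leaves 1 WT library assumed to vary like the others, none of these 4 passed (adjusted p = 0.0599 for TFRC, 0.0612 for IREB2, 0.0796 for NCOA4 and 0.144 for SLC11A2), and over all genes the share called fell from 43.1% to 1.10%, while the log2 fold change of TFRC ran from 1.22 to 1.54 over the libraries left out. Without H2A.X WT D6 replicate 1, NCOA4 (0.0616) and SLC11A2 (0.0688) were lost, and SLC11A2 also without H2A.X KO D6 replicate 2 (0.0626). FTH1 (0.0267) and FTL (0.0198) were called lower in KO without that library, and SLC25A37 was called higher without H2A.X KO D6 replicate 3 (adjusted p = 0.0472). With the length and GC correction TFRC had a log2 fold change of 0.56 (adjusted p = 0.0610) and SLC11A2 of 0.28 (0.354). NCOA4 (1.43, 0.0204) and IREB2 (0.43, 0.0283) stayed called with it, and TFR2 (0.60, 0.0152) and STEAP3 (0.66, 0.0152) were called higher. With canonical transcript lengths TFRC was called (0.74, 0.0241), as were NCOA4 (1.19, 0.0456) and TFR2 (0.62, 0.0181), whereas IREB2 (0.33, 0.0549), STEAP3 (0.29, 0.199) and SLC11A2 (0.42, 0.212) were not. FTL, the member with the shortest exonic length at 871 bp, turned from -0.52 to 0.63 with the correction on exonic length (adjusted p = 0.108). The erythroid marker sums of KO and WT overlapped at D6, and the mast cell and eosinophil sums did not, at 3.08 to 13.5 CPM in KO and 145 and 232 CPM in WT. Their part in these differences was not tested.

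**Figure D4:**
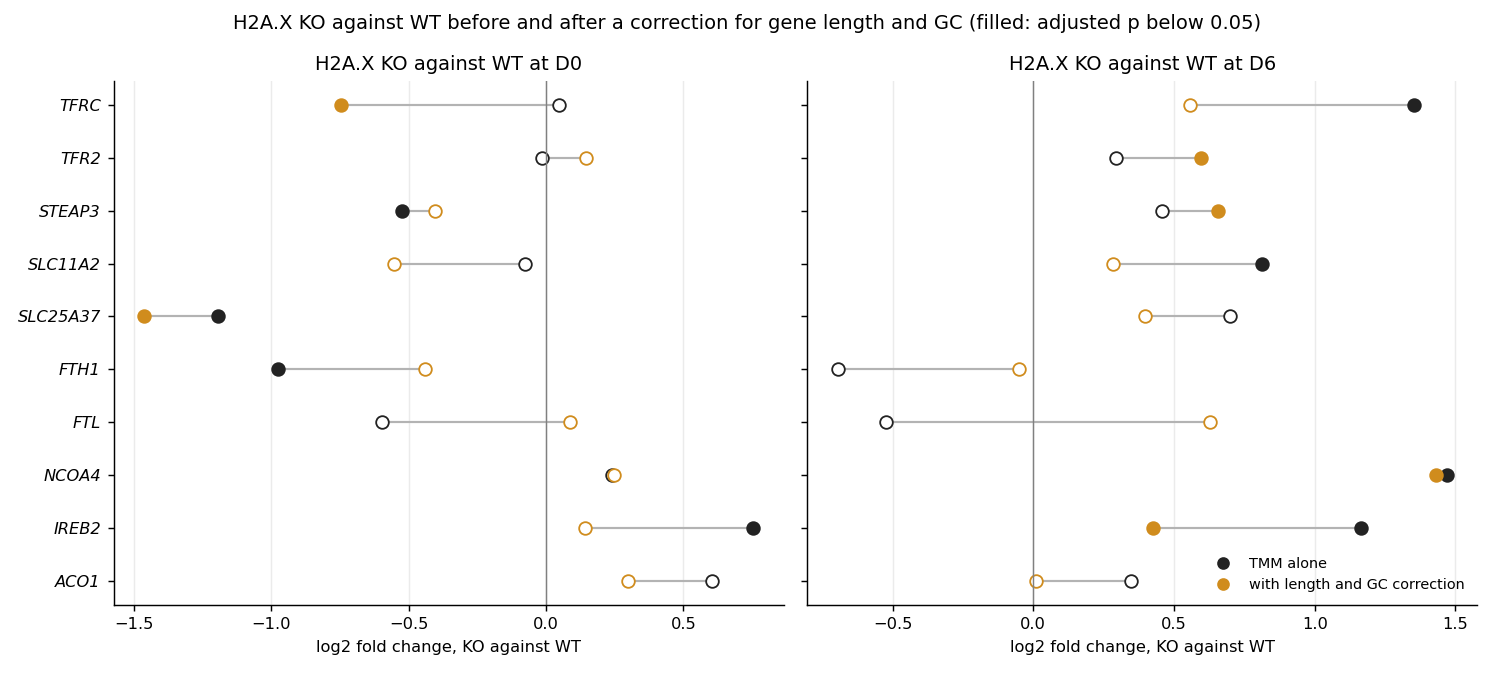
The plot of the length and GC correction gives, for each gene, the log2 fold change of H2A.X KO against WT at D0 and D6 with TMM normalization alone (black) and with the correction (ochre), filled where the adjusted p was below 0.05. TFRC moves from 0.049 to -0.75 at D0 and from 1.35 to 0.56 at D6, FTL moves from -0.52 to 0.63 at D6, and NCOA4 at D6 stays at 1.43 after 1.47.

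A ratio of members within a library is free of that library's normalization, and 2 ratios, chosen after the values were seen, are given as descriptions. The ratio of FTH1 to FTL, both in RPKM, was 0.516, 0.538 and 0.536 in BAZ1B WT and 0.518, 0.548 and 0.525 in BAZ1B KO at D0. At D6 it was 0.706, 0.703 and 0.758 in WT and 0.832, 0.813 and 0.869 in KO. The mRNA of the heavy chain thus gained on that of the light chain in each genotype, and at D6 all KO libraries were above all WT libraries. In the H2A.X experiment the ratio was 0.628 and 0.751 in WT and 0.595, 0.478 and 0.552 in KO at D0, with all KO libraries below WT, and 0.733 and 0.755 in WT and 0.723, 0.602 and 0.716 in KO at D6. The ratio of IREB2 to ACO1, the regulators, was 1.32, 1.31 and 1.35 in BAZ1B WT and 1.38, 1.38 and 1.30 in BAZ1B KO at D0, and 2.41, 2.36 and 2.46 in WT and 2.32, 2.28 and 2.31 in KO at D6. It was 1.25 and 1.09 in H2A.X WT and 0.853, 1.55 and 1.93 in H2A.X KO at D0, and 1.46 and 1.77 in WT and 2.38, 3.29 and 2.91 in KO at D6. In each of the 4 genotype groups IREB2 stood higher against ACO1 at D6 than at D0. A ratio shows unequal change and not which of the genes changed.

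**Figure D5:**
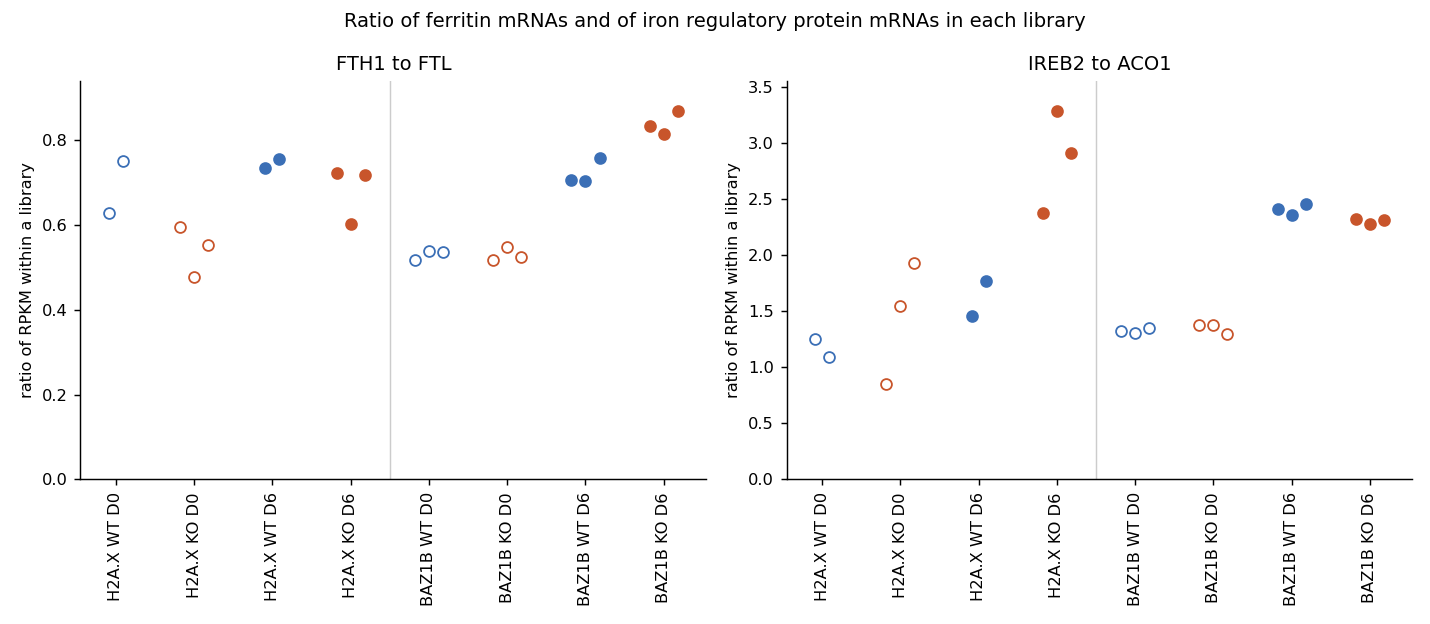
The plot of ratios gives the FTH1 to FTL and the IREB2 to ACO1 ratio of RPKM for each library on axes from 0, open at D0 and filled at D6, blue for WT and orange for KO. In the BAZ1B experiment the FTH1 to FTL ratio lies between 0.516 and 0.548 at D0, from 0.703 to 0.758 in WT at D6 and from 0.813 to 0.869 in KO at D6.

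The counting could mix some members with other genes. Of the exonic length of FTH1 63.2% overlaps BEST1 on the other strand, and BEST1 had at most 15 reads in any library. STEAP3 shares 11% with STEAP3-AS1, which had at most 3. The 25 FTH1P and 16 FTLP pseudogene names held at most 0.185% as many reads as their parent in any library, and adding their reads to FTH1 and FTL changed no call. The other members share at most 1.1% of their exonic length with another gene. The sources name different kits, one of which does not mark strand, so reads of FTH1 and BEST1 in the shared stretch may not be told apart. The low count of BEST1 does not show whether reads of that stretch were left uncounted. The RPKM of FTH1, its place below FTL and the FTH1 to FTL ratio carry this limit.

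Across the 12 libraries of the BAZ1B experiment the log2 CPM of the members were closely related apart from that of FTL, and ACO1 was related inversely. As a description over libraries that share day and genotype, Pearson's r of TFRC was 0.992 with FTH1, 0.987 with SLC25A37 and 0.986 with SLC11A2, 0.574 with FTL and -0.981 with ACO1. Across the 10 libraries of the H2A.X experiment, r of TFRC was 0.922 with SLC11A2 and 0.919 with NCOA4 but 0.0469 with FTH1 and 0.0337 with FTL. There FTH1 and FTL kept together, with r of 0.951, against 0.617 in the BAZ1B experiment. Of 12870 genes tested in both experiments, those most like each member, by the lower of its Pearson correlations over the 10 and the 12 libraries, were IQSEC1, RANBP10 and CDC27 for TFRC (0.986, 0.983 and 0.976), RIPOR1, ADIPOR2 and CTNNA1 for SLC11A2 (0.984, 0.974 and 0.973) and PCIF1, TYK2 and RNF123 for TFR2 (0.959, 0.934 and 0.928). They were SLC2A4, RAB3IL1 and DMTN for SLC25A37 (0.990, 0.986 and 0.984), OIP5, OST4 and GABARAPL2 for FTH1 (0.982, 0.980 and 0.977) and BACH1, SERINC1 and MOB1B for NCOA4 (0.982, 0.980 and 0.977). For IREB2 they were PDS5A, IPO7 and RFC1 (0.984, 0.971 and 0.967). They were FAM122C, PLAGL2 and Z99129.4 for STEAP3 (0.935 to 0.879), TALDO1 and HBG1 for FTL (0.913 and 0.890) and ADARB1, ZMAT3 and DCUN1D3 for ACO1 (0.938 to 0.930). HBG1 lay near the floor, at 0 to 0.95 CPM in the BAZ1B experiment and at most 3.6 CPM in the H2A.X experiment. Its correlation with FTL therefore rests on few reads.

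The rest of the pathway was described with 3 further lists: 37 genes of iron transport and handling, 27 of iron-sulfur cluster assembly and 6 other mRNAs known to carry an iron-responsive element, which include SLC40A1 of the first list. In BAZ1B WT between D0 and D6 the transport list split evenly, with 12 higher and 12 lower of 26 tested and a median log2 fold change of 0.013, against -0.015 over all genes, of which 68.9% were called. LRP1, an endocytic receptor that takes up heme bound to hemopexin, rose most (log2 fold change 6.17, SE 0.429, adjusted p = 4.05e-08). ERFE, the erythroid hormone that lowers hepcidin, rose too (log2 fold change 3.35, SE 0.0757, adjusted p = 5.60e-12), as did CYBRD1, a ferrireductase (log2 fold change 1.42, SE 0.0692, adjusted p = 1.56e-09). The size of the LRP1 change was thus the least precise of these. HFE, STEAP1 and HEPH were called lower and had too few reads at D6 for a fold to be given. The iron-sulfur list had 10 higher and 7 lower of 26 tested, led upwards by GLRX5 (log2 fold change 1.32, adjusted p = 1.94e-10) and downwards by FDX1 (log2 fold change -0.98, adjusted p = 7.73e-06). Of the other mRNAs with an element, 2 rose and 3 fell, with ALAS2, the erythroid enzyme that starts heme synthesis (log2 fold change 3.00, adjusted p = 6.26e-10), and EPAS1, which encodes HIF-2α (log2 fold change -3.09, adjusted p = 1.35e-10), at the ends. In BAZ1B KO against WT, the counts at D6, where 12.8% of all genes were called, were 4 higher and 4 lower of 26 tested for transport, 1 higher and 0 lower of 26 tested for iron-sulfur clusters and 1 higher and 1 lower of 6 tested for the mRNAs with an element. HMOX1, heme oxygenase, was lower there (log2 fold change -1.67, adjusted p = 0.00422), as was EPAS1 (log2 fold change -1.03, adjusted p = 0.000220). EPAS1 was also the 1 gene of these lists called for the D6 effect minus the D0 effect, where 2.47% of all genes were (log2 fold change -0.99, adjusted p = 0.00667).

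In H2A.X KO against WT the iron-sulfur list leaned one way, with 0 higher and 15 lower of 26 tested at D0 and 0 higher and 14 lower of 26 tested at D6, and medians of -0.58 and -0.52, against 0.013 and -0.0062 over all genes, of which 35.1% were called at D0 and 43.1% at D6. At D0 these were led by GLRX5 (log2 fold change -1.46, adjusted p = 0.00835), LYRM4 (log2 fold change -1.10, adjusted p = 0.0173) and BOLA3 (log2 fold change -1.09, adjusted p = 0.00685). With the length and GC correction, a repeat chosen after the data were seen, the list had 0 higher and 11 lower at D0 and 0 higher and 7 lower at D6, with medians of -0.41 and -0.27. The same correction called 29.1% of all genes at D0 and 31.8% at D6, both directions together. Medians over all genes were then -0.00040 and 0.029. The transport list had 5 higher and 4 lower of 25 tested at D0, with HERC2, the ligase that marks NCOA4 for degradation and has pseudogenes that could share its reads, highest (log2 fold change 1.89, adjusted p = 0.00920). SLC25A28 (mitoferrin-2), the paralog of SLC25A37, was lower (log2 fold change -0.84, adjusted p = 0.00784). At D6 it had 7 higher and 6 lower of 25 tested, with LRP1 highest but with a wide SE (log2 fold change 4.97, SE 0.928, adjusted p = 0.00451). Of the mRNAs with an element, 4 were called at each day, with CDC42BPA highest at D0 (log2 fold change 1.35, adjusted p = 0.0131) and D6 (log2 fold change 1.48, adjusted p = 0.00700). ALAS2 was lower in KO at D0 (log2 fold change -1.60, adjusted p = 0.00560), as SLC25A37 was, and SLC40A1 (ferroportin, the iron exporter of the cell) was higher at D0 (log2 fold change 0.44, adjusted p = 0.0408) and D6 (log2 fold change 0.72, adjusted p = 0.00557). Between D0 and D6 the transport list had 11 higher and 7 lower of 25 tested in KO and 0 higher and 1 lower of 25 tested in WT, and EPAS1 fell in both (log2 fold change -3.82, adjusted p = 1.83e-05 in KO, log2 fold change -3.21, adjusted p = 0.00121 in WT). EPAS1 and SLC39A14, a transporter of iron and zinc (log2 fold change -1.54, adjusted p = 0.0489), were the genes of these lists that passed the threshold by day in H2A.X WT, where no member did.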

How the data were processed

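RNA-Seq libraries of HUDEP-2 subclones were read from the raw counts per gene symbol that the authors deposited, 1 table per experiment, with no normalization. Per the labels and the processing notes of the submitters, reads were aligned to hg38 with STAR 2.7.0f and counted with featureCounts of Subread 1.6.4. The kit is named differently in the sources, so the strand setting is uncertain. Groups came from the labels, and all sample columns were used. The analysis used R 4.3.3.

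Counts were filtered with filterByExpr (minimum count 10, minimum total 15), normalized by TMM and fitted in edgeR 4.0.16 with quasi-likelihood, 1 coefficient per genotype and day, both days of an experiment together and no block. Two-sided p-values were adjusted by the Benjamini-Hochberg method over all genes tested, and an adjusted p below 0.05 was a call. The method was tested on simulated data. RPKM used canonical transcript lengths of GENCODE in GRCh38. DESeq2 1.42.0, other normalizations, no filter, a spline correction for length and GC content (the same with canonical transcript lengths was added after the data were seen), blocks, stricter cutoffs and each library left out were alternatives. Libraries with the same subclone number, which the labels give as a replicate number, were checked across D0 and D6. In the H2A.X experiment every pair deviated together (correlations of 0.253 to 0.639), and in the BAZ1B experiment 1 WT pair did not (-0.00865).

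All 10 members were tested in every comparison, and those not named singly are within the range given. Of the other lists, genes to be named could come only from the 3 called ones with the largest change in each direction per list and comparison, and some of these are named. Of the genes most like each member, 1 is not reported here. The members and lists were chosen with earlier results of these data known. No pair of libraries agreed within sampling noise.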

Additional observations from a re-analysis of the deposited data

How the results depend on the processing

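The counts of members called were, with all libraries, 4 for H2A.X KO/WT at D0, 4 for H2A.X KO/WT at D6, 0 for H2A.X KO effect at D6 minus D0, 0 for H2A.X WT by day, 7 for H2A.X KO by day, 1 for BAZ1B KO/WT at D0, 2 for BAZ1B KO/WT at D6, 0 for BAZ1B KO effect at D6 minus D0, 10 for BAZ1B WT by day and 9 for BAZ1B KO by day. With stricter cutoffs, 0.001 for the adjusted p and 1.5 for the size of the log2 fold change, the counts that moved by over 1.5 times were 0 for H2A.X KO/WT at D0, 0 for H2A.X KO/WT at D6, 1 for H2A.X KO by day, 0 for BAZ1B KO/WT at D0, 0 for BAZ1B KO/WT at D6, 2 for BAZ1B WT by day and 2 for BAZ1B KO by day. How many of all genes passed these cutoffs was not counted. With the length and GC correction the counts that moved by over 1.5 times were 2 for H2A.X KO/WT at D0, 1 for H2A.X KO effect at D6 minus D0, 0 for BAZ1B KO/WT at D0 and 1 for BAZ1B KO/WT at D6. It called, in the same order, 29.1%, 1.84%, 4.73% and 15.9% of all genes. With that correction with canonical transcript lengths the counts that moved by over 1.5 times were 2 for H2A.X KO/WT at D0, 1 for H2A.X KO effect at D6 minus D0 and 0 for BAZ1B KO/WT at D0. With the replicate block and the correction together the count that moved so far was 2 for H2A.X KO/WT at D0, where 35.8% of all genes were called. With DESeq2 the counts that moved by over 1.5 times were 3 for H2A.X KO effect at D6 minus D0 and 1 for BAZ1B KO effect at D6 minus D0. DESeq2 called 5.14% and 5.04% of all genes there. With no filter on low counts the counts that moved by over 1.5 times were 5 for H2A.X KO effect at D6 minus D0, 2 for BAZ1B KO/WT at D0 and 2 for BAZ1B KO effect at D6 minus D0. Of all genes 3.95%, 4.42% and 3.63% were called there. With the subclone number as a block the count that moved so far was 3 for H2A.X KO effect at D6 minus D0 (4.17% of all genes). With the subclone block and the correction together the count that moved so far was 3 for H2A.X KO effect at D6 minus D0 (4.59% of all genes). With the libraries of the compared day alone the count that moved so far was 0 for BAZ1B KO/WT at D0 (3.03% of all genes). With upper-quartile normalization the count that moved so far was 1 for BAZ1B KO effect at D6 minus D0 (2.41% of all genes). Leaving out 1 library at a time gave counts from 0 to 3 for H2A.X KO/WT at D0, 0 to 5 for H2A.X KO/WT at D6, 0 to 3 for H2A.X KO effect at D6 minus D0, 0 to 0 for H2A.X WT by day, 4 to 7 for H2A.X KO by day, 0 to 2 for BAZ1B KO/WT at D0, 1 to 2 for BAZ1B KO/WT at D6, 0 to 1 for BAZ1B KO effect at D6 minus D0, 10 to 10 for BAZ1B WT by day and 9 to 9 for BAZ1B KO by day. The cause of these moves was not tested.

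No member changed direction after being called. The log2 fold changes that took the other sign were as follows, and among them TFRC at D0 (H2A.X KO/WT) with the correction, alone (adjusted p = 0.0221) or with the replicate block (0.00937), and FTL at D6 with the latter (0.0405) were called. With upper-quartile normalization these were TFRC -0.031 for H2A.X KO/WT at D0, TFRC 0.0023 for H2A.X WT by day and TFR2 0.0076 and IREB2 0.0024 for BAZ1B KO/WT at D0. With the length and GC correction these were TFRC -0.75, TFR2 0.15 and FTL 0.087 for H2A.X KO/WT at D0, FTL 0.63 for H2A.X KO/WT at D6, TFRC 0.13, FTL -0.032 and IREB2 0.00055 for H2A.X WT by day, TFR2 0.017, SLC25A37 0.011, FTL 0.0065 and IREB2 0.0029 for BAZ1B KO/WT at D0 and FTH1 0.015 for BAZ1B KO/WT at D6. With that correction with canonical transcript lengths these were TFRC -0.41, TFR2 0.17, FTL 0.16 and ACO1 -0.14 for H2A.X KO/WT at D0, FTH1 0.077, FTL 0.55 and ACO1 -0.44 for H2A.X KO/WT at D6, TFRC 0.20 and IREB2 0.043 for H2A.X WT by day, TFR2 0.011, SLC25A37 0.015, IREB2 0.012 and ACO1 0.013 for BAZ1B KO/WT at D0, FTH1 0.016 for BAZ1B KO/WT at D6 and FTL -0.022 for BAZ1B KO by day. With the replicate block and the correction together these were TFRC -0.74, TFR2 0.16 and FTL 0.23 for H2A.X KO/WT at D0, FTH1 0.029 and FTL 0.70 for H2A.X KO/WT at D6, TFR2 0.017, SLC25A37 0.0024, FTL 0.0068 and IREB2 0.0026 for BAZ1B KO/WT at D0 and FTH1 0.016 for BAZ1B KO/WT at D6. With the subclone number as a block these were FTL -0.0060 for H2A.X KO effect at D6 minus D0. With DESeq2 these were NCOA4 -0.0014 for H2A.X WT by day and TFR2 0.0019 for BAZ1B KO/WT at D0. With RLE size factors these were NCOA4 -0.0016 for H2A.X WT by day and TFR2 0.0020 for BAZ1B KO/WT at D0. With no filter on low counts these were NCOA4 -0.039 for H2A.X WT by day, FTH1 0.0012 for BAZ1B KO/WT at D6 and IREB2 0.0051 for BAZ1B KO effect at D6 minus D0. With the subclone block and the correction together these were TFRC 0.13, FTL -0.029 and IREB2 0.00040 for H2A.X WT by day. With the globin genes left out these were TFR2 0.0036 for BAZ1B KO/WT at D0. With the libraries of the compared day alone these were TFR2 0.0027 for BAZ1B KO/WT at D0. Leaving out 1 library at a time turned the sign of uncalled values over the ranges SLC11A2 -0.29 to 0.18, TFR2 -0.23 to 0.25 and TFRC -0.078 to 0.16 for H2A.X KO/WT at D0, ACO1 -0.47 to 0.10, FTH1 -0.18 to 0.65 and FTL -0.30 to 0.36 for H2A.X KO effect at D6 minus D0, NCOA4 -0.095 to 0.094, TFR2 -0.18 to 0.30 and TFRC -0.12 to 0.100 for H2A.X WT by day, ACO1 -0.064 to 0.0073, IREB2 -0.042 to 0.021, NCOA4 -0.020 to 0.032, SLC25A37 -0.20 to 0.093, TFR2 -0.017 to 0.018 and TFRC -0.023 to 0.075 for BAZ1B KO/WT at D0, FTH1 -0.043 to 0.013, IREB2 -0.050 to 0.021 and STEAP3 -0.0100 to 0.084 for BAZ1B KO/WT at D6 and FTH1 -0.0035 to 0.052, IREB2 -0.045 to 0.029 and TFRC -0.014 to 0.13 for BAZ1B KO effect at D6 minus D0.

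Of all single-gene values recomputed, 1412 kept their direction and their side of the threshold, 61 lost a call, 54 gained one and 93 changed sign. Deviations from the group means of libraries with the same replicate number in WT and KO correlated at 0.0985 to 0.275 over the 4 pairs of the H2A.X experiment and at -0.176 to 0.271 in the BAZ1B experiment. As neither the labels nor a correlation over 0.1 in every pair showed a pairing, the block was not used for the values in the report. With the replicate block, 5 members were called at D0 and 6 at D6 in H2A.X KO against WT, with ACO1 gained at D0 (adjusted p = 0.00951) and ACO1 (0.0299) and FTH1 (0.0391) at D6, and 1 and 3 in BAZ1B KO against WT, where the member gained at D6 was SLC25A37 (adjusted p = 0.0460). Of all genes, the replicate block called 41.5% at D0 and 48.8% at D6 in H2A.X KO against WT, and 4.22% and 13.0% in BAZ1B KO against WT. With the subclone block, 7 members were called by day in H2A.X KO, 0 in H2A.X WT, 10 in BAZ1B WT and 9 in BAZ1B KO. The shares of all genes called there were, in the same order, 38.5%, 8.51%, 72.2% and 70.5%.

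Over all genes, leaving out 1 library at a time gave counts called of 77 to 4242 for H2A.X KO/WT at D0 (4651 with all), 152 to 6656 for H2A.X KO/WT at D6 (5701 with all), 6 to 851 for H2A.X KO effect at D6 minus D0 (177 with all), 1 to 184 for H2A.X WT by day (265 with all), 2641 to 4871 for H2A.X KO by day (4094 with all), 258 to 1323 for BAZ1B KO/WT at D0 (539 with all), 1112 to 1645 for BAZ1B KO/WT at D6 (1782 with all), 119 to 765 for BAZ1B KO effect at D6 minus D0 (343 with all), 8946 to 9114 for BAZ1B WT by day (9565 with all) and 8876 to 9487 for BAZ1B KO by day (9392 with all). The lowest counts for H2A.X KO/WT came without WT replicate 2 of the day compared. With all libraries, the counts over all genes moved by over 1.5 times for H2A.X KO/WT at D0 from 4651 to 2480 with the correction on canonical lengths, and at D6 from 5701 to 2399 with it and 3731 with D6 alone. For the H2A.X KO effect at D6 minus D0 177 became 680 with DESeq2, 1007 without the filter, 552 with the subclone block and 551 with block and correction, and for H2A.X WT by day 265 became 1067, 1271, 1127 and 947. For BAZ1B KO/WT at D0 539 became 1201 without the filter, and for the BAZ1B KO effect at D6 minus D0 343 became 700, 987, 718 and 762. The share of called genes that were higher moved by over 10 points for the H2A.X KO effect at D6 minus D0, from 22.6% to 37.1% with the correction, 38.0% on canonical lengths, 41.3% with DESeq2, 45.3% without the filter, 38.2% with the block and 45.9% with both. It moved for BAZ1B KO/WT at D0 from 32.1% to 44.6%, 46.0% and 43.4% with the correction alone, on canonical lengths and with the block, and for the BAZ1B KO effect at D6 minus D0 from 63.8% to 51.2% with upper-quartile normalization and 53.7% with the subclone block and the correction. Upper-quartile normalization moved the median of all genes for H2A.X KO/WT at D6 to -0.11, and member values under it are relative to that. The precision of small differences was lowest in the H2A.X experiment: the SE of the KO/WT log2 fold change was 0.168 to 0.350 at D0 there.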
